A study of Saccharomyces cerevisiae with 60 samples.

Results

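Genes for water channels, glycerol channels and glycerol synthesis in budding yeast, Saccharomyces cerevisiae, were followed on arrays of 2 colours. The 6 members were chosen by name: AQY1, AQY2, FPS1, STL1, GPD1 and GPD2. Rows carrying 5 of these symbols were found among 5524 named genes, each with 1 spot row, and AQY1 is not analysed here. Total RNA came from 9 strains growing exponentially with copper sulfate or in rich medium, and each strain had 3 arrays per medium. The strains were S288C, the laboratory strain whose genome is the reference, YPS163, known as an isolate from oak, and the vineyard isolates M5, M8, M13, M14, M22, M32 and M34, with origins that are background knowledge. The labels give no copper dose and leave unsaid whether the replicates came from separate cultures, so that p-values cover the spread between these arrays alone, which may be technical. Each of 54 strain arrays set a strain against the pooled RNA of all 9 strains in the same medium, and 6 further arrays set the copper pool against the rich medium pool.

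Aquaporins let water cross the plasma membrane along an osmotic gradient, and AQY1 and AQY2 encode the orthodox aquaporins of this yeast. Fps1 is a channel through which glycerol leaves the cell, and Stl1 is a proton symporter that takes glycerol up. Gpd1 and Gpd2 are the isoenzymes of glycerol 3-phosphate dehydrogenase, the first step from glycolysis to glycerol. GPD1 is known for its induction by osmotic stress through the kinase Hog1, and GPD2 for its role in redox balance when oxygen is short. Glycerol is the main compatible solute of this yeast, so that channels, symporter and enzymes together set its level in the cell.

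The 5 measured members lie on 3 chromosomes of the R64 assembly. AQY2 (YLL052C) spans chrXII:35912-36361 and is a coding frame of 450 bases there. In S288C the aquaporin frame is known to be interrupted, and the annotation lists a second frame, YLL053C, at chrXII:35503-35961, which overlaps AQY2 by 50 bases. In some other strains a single frame is known to run through both. The sources used here do not give the frame of the strains beside S288C on these arrays. YLL053C had a spot of its own on the array and was followed beside AQY2, although it is no member by name. FPS1 (YLL043W) spans chrXII:49938-51947, STL1 (YDR536W) chrIV:1508005-1509714, GPD1 (YDL022W) chrIV:411825-413000 and GPD2 (YOL059W) chrXV:217126-218448.

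All values below are log2 ratios after each array was centred on its median, and a level is a ratio of a strain to its pool, not an amount of transcript. No source used here states the direction of the ratios. The ratios of 9 strains to their own pool must average about 1 on the linear scale, and over the 200 most variable rows the log2 of that average had a median absolute value of 0.11 in copper and 0.12 in rich medium when values were read as channel 1 over channel 2. It was 0.38 and 0.39 in the opposite reading. For AQY2 in rich medium the log2 of the average was -0.05 against 0.64 in the opposite reading, and for YLL053C -0.27 against 0.50. Single genes did not all favour that reading. In copper the opposite reading lay nearer to 0 for AQY2 (0.07 against 0.04), YLL053C (0.12 against 0.07), STL1 (0.18 against -0.05), GPD1 (0.07 against -0.01) and GPD2 (0.07 against -0.04), and in rich medium for FPS1 (0.17 against -0.14) and STL1 (0.29 against -0.22). For the pool arrays the likely direction rests on CUP1-1, the metallothionein gene known to be induced by copper, which then lay between 3.45 and 8.92 on the 6 arrays. That reading is channel 2 over channel 1, opposite to the strain arrays. Directions are thus likely and not settled. Of 352 pairs of strain arrays of one channel order and medium, 48 correlated under -0.3 across genes. After a running median over neighbouring spots was subtracted, 0 did. Turning all strain arrays at once leaves such correlations unchanged, so they cannot decide the common direction. With the sign of the strain arrays turned, every strain named as highest would be the lowest by the same amount, and with the sign of the pool arrays turned, a fall in copper would be a rise.

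AQY2 was the member that differed among strains. It was highest in YPS163 in both media, and in rich medium YPS163 exceeded the mean of the other 8 strains by 2.34 ± 0.44 (SE, n = 3 arrays of YPS163), which is 5.06-fold. The second spot of the locus, YLL053C, was likewise highest in YPS163, by 1.61 ± 0.33 in rich medium and by 1.53 ± 0.33 in copper. None of FPS1, STL1, GPD1 and GPD2 passed a test between strains. In the direct comparison of the pools, AQY2 was also the 1 member that fell in copper.

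In rich medium the YPS163 arrays gave 3.06, 0.78 and 1.17 for AQY2 (replicates 1 to 3). Those of M32 gave -0.51, 1.79 and -0.20, and those of M8 0.11, 0.52 and 0.11. In the laboratory strain S288C the values were -0.23, -2.34 and 0.34. YPS163 was above 0 on all 3 arrays and M8 was too, while M32 owed its mean above 0 to replicate 2. For M14 the arrays gave -0.05, -1.81 and -0.43. M13 gave -0.41, -1.57 and -0.61, and M5 -0.86, -2.05 and -0.38. The remaining strains, M34 and M22, were below 0 on every array as well, between -1.61 and -0.50 in M34 and between -1.94 and -0.81 in M22. Of the 24 arrays of the other 8 strains, 1 exceeded the lowest YPS163 array, namely M32 replicate 2. The order by mean was YPS163 (1.67 ± 1.22, SD, n = 3), M32 (0.36 ± 1.25), M8 (0.24 ± 0.24), S288C (-0.74 ± 1.41), M14, M13, M5, M34 and M22 (-1.34 ± 0.57). Each of the 8 neighbouring pairs in this order overlapped in the range of its arrays, so that no 2 adjacent strains were separated beyond their spread.

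The limma F-test over the 9 strains in rich medium gave AQY2 a fitted range of 3.01 between YPS163 and M22 (adjusted p = 0.00690). This range was wider than that of 99.3% of genes, whose median range was 0.91. AQY2 was thus 1 of 5 members called, where 1.63% of all genes were. Of the 45 pairs of a member and a strain, each strain tested against the other 8, 1 passed in rich medium, AQY2 in YPS163 (adjusted p = 0.00384), with 7 at an unadjusted p under 0.05. Of all such pairs 0.245% passed and 9.33% had an unadjusted p under 0.05, and of all genes in YPS163 0.217%. The call rested on YPS163 replicate 1, which had the strain in channel 2, as replicate 1 of every strain did. Without that array the difference was 1.63 (adjusted p = 0.477) and the F-test gave adjusted p = 0.144. With arrays scaled to an equal spread the difference was 1.55 and did not pass either (adjusted p = 0.641).

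In copper AQY2 was again highest in YPS163, with 0.93, 1.49 and 0.61 on its 3 arrays. S288C gave 0.31, -0.28 and 0.57, M22 -0.35, 0.04 and 0.64, and M13 0.28, 0.04 and -0.47. The lowest mean was that of M5, with -0.46, -0.09 and -0.54. YPS163 was above 0 throughout, and 1 of 24 arrays of the other strains, M22 replicate 3, exceeded its lowest array. The means ran from 1.01 ± 0.44 in YPS163 and 0.20 ± 0.43 in S288C to -0.36 ± 0.24 in M5 (SD, n = 3 each). YPS163 did not overlap S288C, its neighbour in the order, and the other 7 neighbouring pairs overlapped. YPS163 differed from the other 8 strains by 1.13 ± 0.44 (SE), which did not pass over all genes (limma, adjusted p = 0.469), where 0.308% of genes passed for that strain. The F-test gave adjusted p = 1.00 with a fitted range of 1.37. In copper limma called 0 of 5 members in the F-test (1.45% of all genes) and 0 of 45 pairs of member and strain (0.286% of all such pairs), with 0 members and 3 pairs at an unadjusted p under 0.05. Over all genes 5.9% and over all pairs 4.34% were at that level.

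Values on these arrays moved with the place of a spot. At the AQY2 spot the running median over 15 by 15 spots ran from -1.46 to 1.43 among the 27 rich medium arrays and from -0.73 to 0.75 in copper. At the YLL053C spot, in another print block, it ran from -0.40 to 0.53 and from -0.23 to 0.48. With this median subtracted, AQY2 in YPS163 was 2.55, 1.88 and 0.36 in rich medium and 1.60, 1.62 and 0.67 in copper. M8, above 0 on every centred rich medium array, was then below 0 on each, between -0.55 and -0.34. The M32 mean in rich medium was then -0.15, and YPS163 was the 1 strain with a mean above 0 in either medium. In both media 0 of 24 arrays of the other strains then exceeded the lowest YPS163 array, though in rich medium the highest of them, M32 replicate 2, came within rounding of it at 0.36. The difference of YPS163 from the other 8 became 2.19 ± 0.27 in rich medium (limma, adjusted p = 9.14e-07) and 1.50 ± 0.27 in copper (adjusted p = 8.25e-04). The F-test over strains passed in rich medium (adjusted p = 4.92e-05, with 2.68% of all genes called) and in copper (adjusted p = 0.0354, with 3.77% called). After this subtraction 0.308% of genes passed for YPS163 in rich medium and 1.09% in copper.

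**Figure D1:**
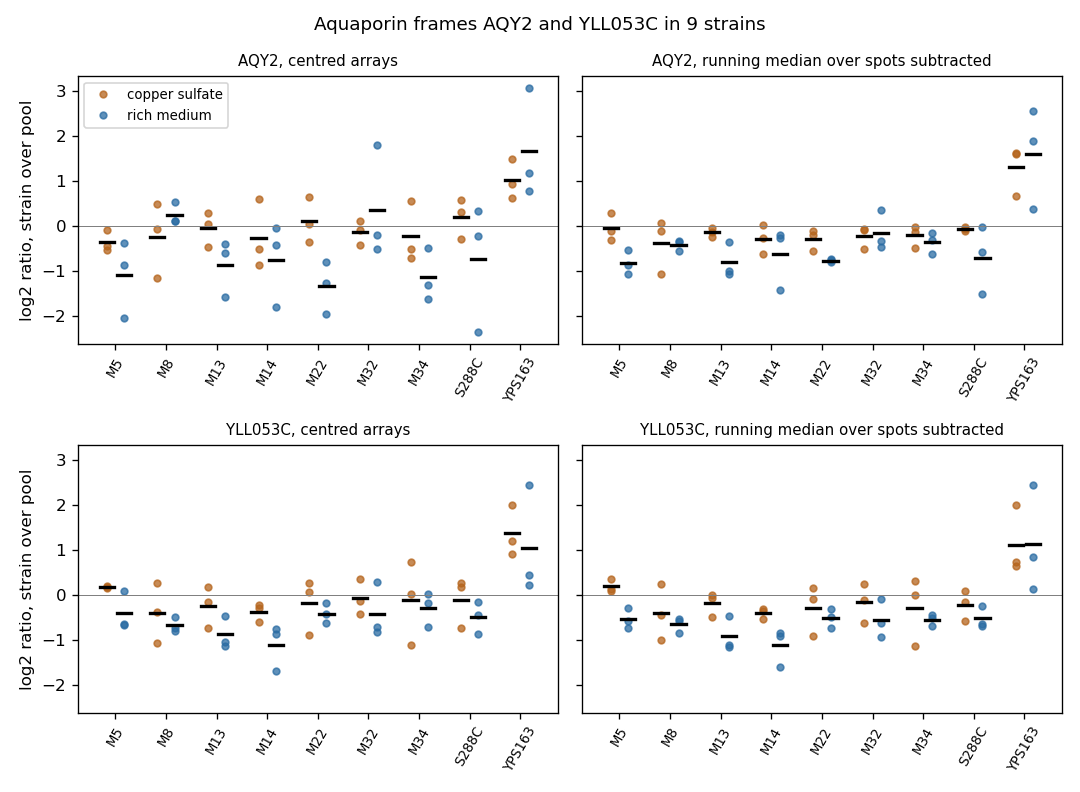
Log2 ratios of strain over pool for AQY2 (top) and YLL053C (bottom) in 9 strains, with arrays centred (left) and with the running median over spots subtracted (right). Points are the 3 arrays of a strain and medium and bars their means; YPS163 has the highest mean in every panel and medium, with AQY2 at 3.06 on its highest centred array.

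The second spot of the locus gave its own measure. YLL053C in YPS163 was 1.20, 2.01 and 0.91 in copper and 2.43, 0.44 and 0.21 in rich medium. In copper 0 of 24 arrays of the other strains reached the lowest of these, their highest being 0.72 in M34. In rich medium 1 did, M32 replicate 1 with 0.28. The difference from the other 8 strains passed for YPS163 in copper (2.90-fold, limma, adjusted p = 0.0183) and in rich medium (3.05-fold, adjusted p = 0.00912). The copper call was lost without centring (adjusted p = 0.128) and without YPS163 replicate 1 or 2 (adjusted p = 0.138 for each). The rich medium call was lost without centring (adjusted p = 0.0815), with equal spread (1.13, adjusted p = 0.985) and without YPS163 replicate 1 (0.80, adjusted p = 0.694). The F-tests over 9 strains did not pass, with fitted ranges of 1.76 in copper (adjusted p = 0.264) and 2.13 in rich medium (adjusted p = 0.0876). The copper test passed with the copper arrays fitted alone (adjusted p = 0.0140) and with equal spread (adjusted p = 0.0285). The rich medium test passed with the running median subtracted (adjusted p = 0.00545), with print blocks centred (adjusted p = 0.00660) and without M32 replicate 1 or YPS163 replicate 2 or 3 (adjusted p = 0.0488, 0.0481 and 0.0295). Over the 18 means of strain and medium, AQY2 and YLL053C correlated with r = 0.72 on centred values and 0.93 with the running median subtracted. Without the YPS163 means the correlations over 16 means were 0.30 and 0.70. These are descriptions, since the means share arrays and pools and span both media, and the frames share bases.

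**Figure D2:**
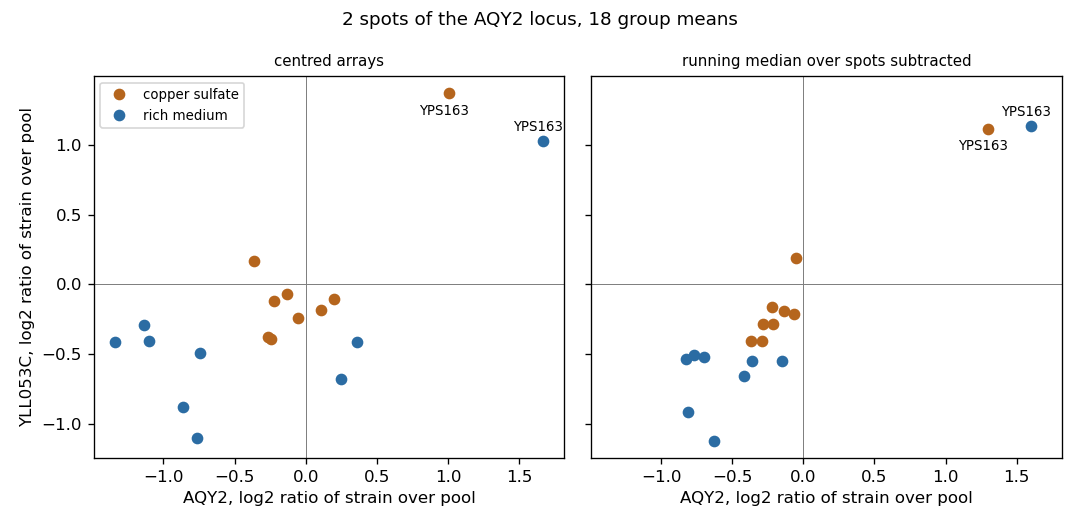
Means of 18 groups of strain and medium for AQY2 (x axis) and YLL053C (y axis), both as log2 ratios of strain over pool, for centred arrays (left) and with the running median over spots subtracted (right). Both YPS163 means lie at the upper right, apart from the other 16.

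The direct comparison of the pools asks whether a gene differed between the media over the combined RNA of the 9 strains. AQY2 was -1.03, -1.03, -0.93, -1.63, -0.65 and -0.39 on pool arrays 1 to 6, copper over rich medium. All 6 arrays were below 0, and the mean was -0.94 ± 0.42 (SD, n = 6). The fitted difference was -0.95 ± 0.19 (SE), 1.94-fold lower in copper (limma, adjusted p = 0.0251). AQY2 was 1 of 5 members called, against 1.41% of all genes and 0.235% called lower. The fitted channel effect for AQY2 was 0.03, and arrays with the copper pool in channel 1 averaged -0.98 against -0.93 in channel 2. Without pool array 1, 2 or 3 the call ended (adjusted p = 0.207, 0.0618 and 0.275), as it did without the channel effect (adjusted p = 0.0902), while the difference stayed between -1.04 and -0.84 with any 1 array left out. With the running median subtracted it was -0.66 (adjusted p = 0.0180, with 1.59% of all genes called). The arrays with copper in channel 1 then lay from -0.55 to -0.35 and those with copper in channel 2 from -1.06 to -0.68, so that the channel orders did not overlap.

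YLL053C was below 0 on all 6 pool arrays too, from -1.18 to -0.20, with a fitted difference of -0.72 ± 0.19 (SE) that did not pass (limma, adjusted p = 0.0938). AQY3 (YFL054C), which encodes a putative channel of the same family, had 0.01 ± 0.21 in the pools (adjusted p = 0.982) and fitted ranges over strains of 0.84 in copper and 0.52 in rich medium, neither of them called (adjusted p = 1.00 and 0.947).

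Summing the pool difference with each strain's ratios in copper and in rich medium gives the response of a single strain to copper. These sums rest on the likely direction of both kinds of array. For AQY2 this response was lowest in YPS163 (-1.61 ± 0.65, SE), M32 (-1.45 ± 0.65) and M8 (-1.44 ± 0.65), and it was -0.01 in S288C and 0.50 in M22. The M22 value was -0.17 with the running median subtracted and -0.09 with print blocks centred. The YPS163 value was -0.59 with equal spread and -0.96 with the running median subtracted, which gave -0.61 for M8 and -0.73 for M32. No strain passed (limma, adjusted p from 0.157 to 1.00), where 1.23% of genes passed in YPS163 and 0.0362% each in M8 and M32. Over all members 0 of 45 pairs passed, 5 with an unadjusted p under 0.05, where 0.163% of all such pairs of gene and strain were called and 8.92% had an unadjusted p under 0.05. The lowest sum of any member was that of STL1 in M22, with -1.88 ± 0.65 (SE, limma, adjusted p = 0.656). The test of whether strains differ in their response gave AQY2 adjusted p = 0.873. That interaction test called 0 of 5 members, 0 of them with an unadjusted p under 0.05, and 0% of all genes, 261 of which had an unadjusted p under 0.05. For each strain's response against that of the other 8, limma called 0 of 45 pairs, with 1 at an unadjusted p under 0.05, and 0% of all such pairs, of which 6.29% were at that level. That 1 pair was STL1 in M22 (-1.63 ± 0.61, SE, limma, adjusted p = 0.399).

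**Figure D3:**
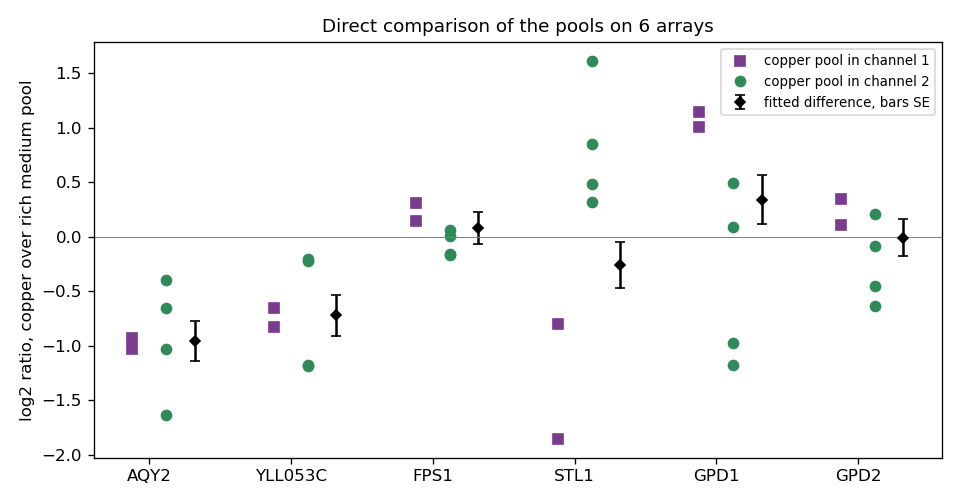
Log2 ratio of the copper pool over the rich medium pool on 6 arrays for AQY2, YLL053C and the other measured members, by channel order, with the fitted difference and its SE. All AQY2 and YLL053C arrays lie below 0, while STL1 and GPD1 arrays separate by channel order.

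STL1 and GPD1 varied on the pool arrays with channel order. STL1, the glycerol symporter gene, was -0.80, 0.32, -1.85, 0.85, 0.48 and 1.61 on pool arrays 1 to 6. The arrays below 0 were the 2 with the copper pool in channel 1, which averaged -1.33 against 0.81 for the other 4. The fitted channel effect was 1.07 (adjusted p = 0.00417), and the copper difference was -0.26 ± 0.21 (SE, limma, adjusted p = 0.581). GPD1 had the opposite pattern, with 1.01, -0.97, 1.14, -1.18, 0.49 and 0.09. Its channel effect was -0.73 (adjusted p = 0.0391) and its copper difference 0.34 ± 0.22 (adjusted p = 0.492). Such channel effects were common on these arrays, since 17.2% of all genes passed that test. No copper difference passed the test for either gene with these 6 arrays, and what moved with channel order was not tested further.

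FPS1, the channel for glycerol export, stayed near 0 in the pools, between -0.17 and 0.31, with a fitted difference of 0.08 ± 0.15 (SE, limma, adjusted p = 0.822). GPD2 ran from -0.63 to 0.35, with -0.01 ± 0.17 (adjusted p = 0.987). The members' median was -0.01, beside -0.04 over all 5524 genes.

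Between strains FPS1 spanned a narrow range. In copper it was lowest in YPS163, with -0.44, -0.59 and -0.40, and highest in M13, with 0.58, -0.20 and -0.03. In rich medium it was highest in M22 (0.67, 0.90 and -0.00) and lowest in M32 (0.56, -0.45 and -0.97). The arrays of every neighbouring pair of strains overlapped in both media, and YPS163 in copper, below 0 on all 3 arrays, lay 0.39 ± 0.21 (SE) under the other 8 strains (limma, adjusted p = 0.594). The F-tests gave fitted ranges of 0.59 in copper and 0.81 in rich medium (adjusted p = 1.00 and 0.657), which is below the median range of all genes, 0.73 and 0.91.

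STL1 had the widest spread between replicates among the members, with an SD pooled over strains of 0.91 in copper and 0.97 in rich medium. In copper M8 was highest (0.55, 1.96 and 0.03) and M22 lowest (-2.23, -0.26 and -0.19). In rich medium M14 was highest (-0.27, 2.03 and 0.57) and M5 lowest (-0.09, 1.27 and -1.50). With the running median subtracted M8 was highest in both media, at 0.37 in copper and 0.79 in rich medium. All neighbours in both orders overlapped, and the fitted ranges of 1.74 and 0.81 did not pass (limma, adjusted p = 1.00 and 0.907). The fitted range in rich medium lay between M14 and M8, since with the channel effect fitted M8 and not M5 was lowest.

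GPD1, the osmotically induced isoenzyme gene, was highest in copper in M34 (0.49, 0.43 and 0.39) and lowest in M5 (0.10, -1.10 and -0.40). In rich medium it was highest in M13 (1.10, -0.31 and 0.42) and lowest in M14 (-0.68, -1.37 and -0.30). With the running median subtracted M32 was highest in copper at 0.54, and M34 had 0.16. Neighbouring strains overlapped throughout. The fitted ranges were 0.90 in copper and 1.19 in rich medium (limma, adjusted p = 1.00 and 0.624), and in copper M34 was the strain with the most even arrays, 0.44 ± 0.05 (SD, n = 3).

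GPD2, the isoenzyme gene tied to redox balance, had the lowest level in copper in S288C, with -0.47, -0.34 and -0.23. The highest was in YPS163, with 0.69, 0.29 and 0.10. S288C lay 0.46 ± 0.20 (SE) under the other 8 strains, with an unadjusted p of 0.0310 that did not pass over all genes (limma, adjusted p = 0.761), where 1.25% of genes did for that strain. In rich medium M8 was lowest (-0.53, -0.84 and -0.27) and did not overlap YPS163, its neighbour in the order, by mean -0.17 ± 0.09 (SD, n = 3). M32 was highest through replicate 1 (1.30, -0.36 and -0.07). M8 lay 0.50 ± 0.20 (SE) under the other 8 strains in rich medium (limma, adjusted p = 0.0902, with 0.145% of genes called for that strain). Without M32 replicate 2 this difference passed (adjusted p = 0.0441). With the running median subtracted it was -0.06 (adjusted p = 0.979), and M8 then stood at place 5 of the 9 strains. In copper YPS163 then stood at place 5 as well, with M5 highest, and S288C remained the lowest, 0.50 ± 0.18 under the others (adjusted p = 0.178). The fitted ranges, 0.71 in copper and 0.84 in rich medium, did not pass (adjusted p = 1.00 and 0.633).

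**Figure D4:**
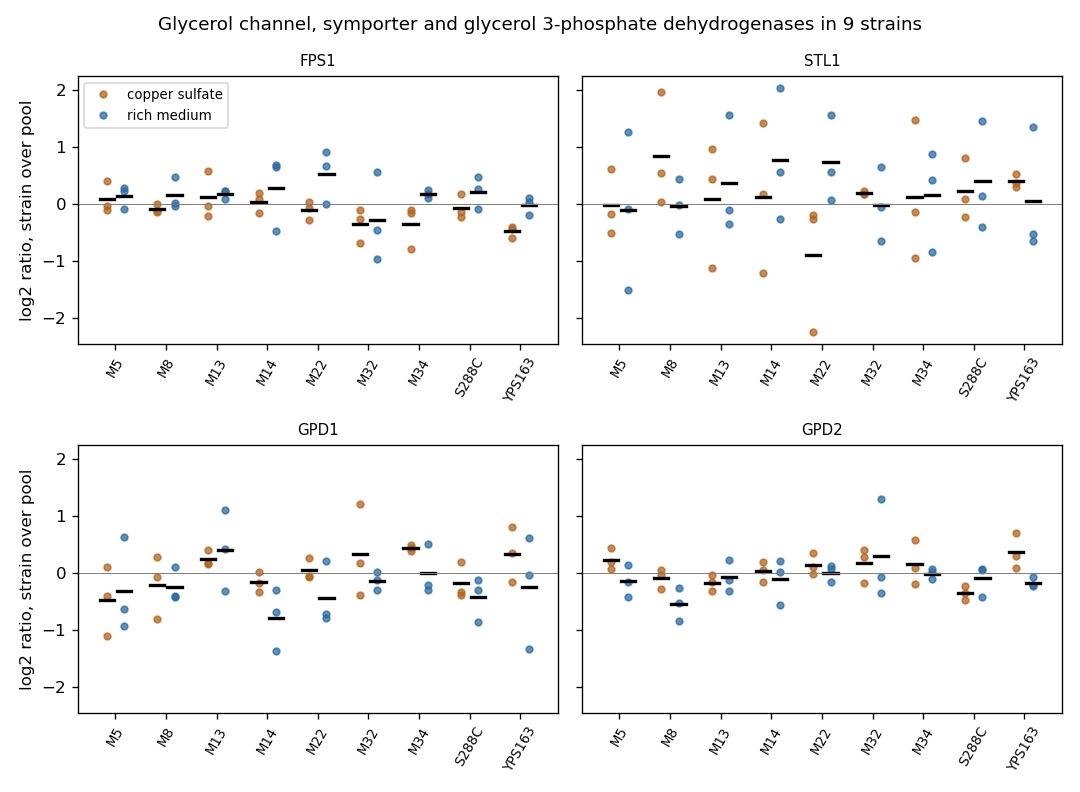
Log2 ratios of strain over pool for FPS1, STL1, GPD1 and GPD2 in 9 strains and 2 media, with arrays centred, points for the 3 arrays and bars for their means. Replicates of STL1 spread most, and no strain stands apart in both media.

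YPS163, the strain with the high AQY2 ratio, was set against the others for the remaining members too. In rich medium FPS1 differed from the other 8 strains by -0.18 ± 0.21 (SE), STL1 by -0.27 ± 0.43, GPD1 by 0.00 ± 0.30 and GPD2 by -0.08 ± 0.20. In copper the same differences were -0.39 ± 0.21, 0.31 ± 0.43, 0.33 ± 0.30 and 0.34 ± 0.20. Each of these 8 values missed the threshold (limma, adjusted p of 0.594 or more), which does not show that YPS163 equals the other strains there.

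**Figure D5:**
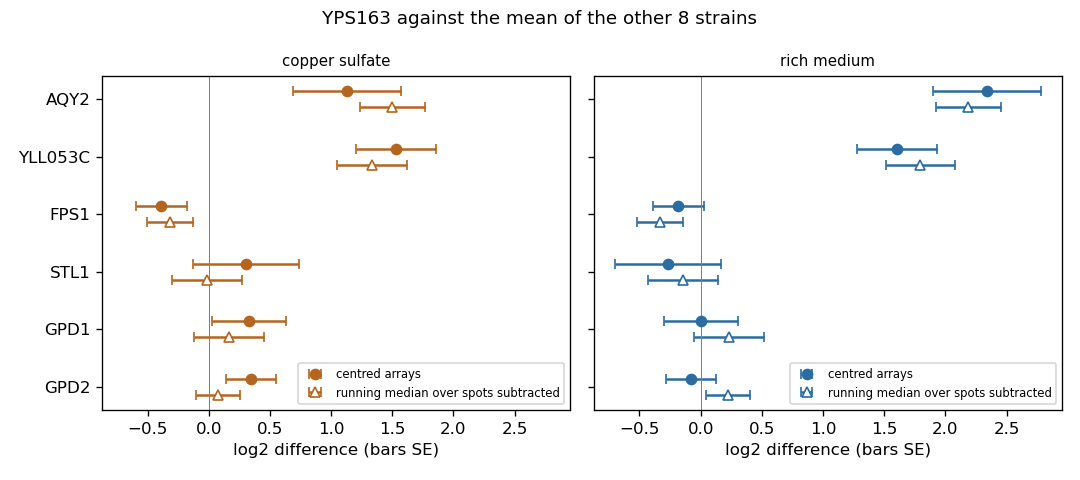
Fitted log2 difference of YPS163 from the mean of the other 8 strains with its SE, in copper (left) and rich medium (right), for centred arrays (filled) and with the running median over spots subtracted (open). AQY2 and YLL053C lie above 1 in both media and the other members within 0.5 of 0.

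Genes around the members were read from lists by role. Of 14 measured genes for glycerol synthesis, use and uptake, 0 passed in the pools by limma, with 2 higher and 2 lower at an unadjusted p under 0.05 (14.6% of all genes were at that level), and their median was 0.12. Among them GPP2, a phosphatase that makes glycerol from glycerol 3-phosphate, had 0.81 ± 0.20 (SE, adjusted p = 0.0733) with 6 of 6 arrays above 0, and its isoenzyme gene GPP1 had -0.02 ± 0.25. GUT2, the mitochondrial glycerol 3-phosphate dehydrogenase gene of glycerol use, had 0.78 ± 0.25 (adjusted p = 0.178), and GUT1, the glycerol kinase gene, -0.08 ± 0.18. The 2 lower ones were DAK1, a dihydroxyacetone kinase gene, with -0.59 ± 0.23 (adjusted p = 0.258) and ASK10, which encodes a regulator of Fps1, with -0.45 ± 0.18 (adjusted p = 0.287). DAK1 was below 0 on 4 of 6 arrays and ASK10 on 3 of 6, and GUT2 was above 0 on 4 of 6. The channel effect of DAK1 passed as well (0.85, limma, adjusted p = 0.0219). These 6 genes were named after their values were seen. Of 26 measured genes of the Hog1 pathway 0 passed in the pools either, with 1 higher and 1 lower at an unadjusted p under 0.05, and a median of 0.03. Neither list had a gene called between strains in copper or in rich medium. Over all genes 1.41% passed in the pools, 1.45% between strains in copper and 1.63% in rich medium. At an unadjusted p under 0.05 the glycerol list held 2 genes in copper and 4 in rich medium, and the Hog1 list 1 and 2, where 5.9% and 11.9% of all genes were at that level. The 15 osmotic stress targets include many that answer to general stress as well, and their median in the pools was 1.02. At an unadjusted p under 0.05, 10 were higher in the copper pool and 2 lower. The lower ones, named after their values were seen, were GRE1 (-0.63 ± 0.18, limma, adjusted p = 0.133) and ENA1 (-0.67 ± 0.21, adjusted p = 0.167). GRE1 was above 0 on 4 of 6 arrays all the same, and its channel effect passed (1.53, limma, adjusted p = 6.00e-04). Passing as higher were 8 of the 15, where 1.18% of all genes did, and 0 passed as lower. Those with the lowest adjusted p were HSP12 (3.15 ± 0.19), ALD3 (2.11 ± 0.18), PGM2 (1.51 ± 0.16) and CTT1 (1.46 ± 0.16), a small heat shock protein, an aldehyde dehydrogenase, phosphoglucomutase and catalase, with adjusted p of 4.11e-04 or less. The channel effect of ALD3 passed too (-0.69, limma, adjusted p = 0.0186), with 6 of 6 arrays above 0. In copper 1 of the 15 targets was called between strains, where 1.45% of all genes were. It was YGP1, which encodes a secreted glycoprotein and is named here as the single such gene. Its fitted range was 2.52 between S288C and M8 (limma, adjusted p = 0.0180). In rich medium 0 of the 15 were called, where 1.63% of all genes were. At an unadjusted p under 0.05 the targets held 5 genes in copper and 1 in rich medium, beside 5.9% and 11.9% of all genes.

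Cultures could hold cells of different mating type, ploidy or sporulation state. Of 15 genes of mating type and ploidy and 17 measured sporulation genes, 0 were called by limma in the pools or between strains. The called shares of all genes were 1.41% in the pools, 1.45% in copper and 1.63% in rich medium. At an unadjusted p under 0.05, 3 and 5 had a difference in the pools, 0 and 1 between strains in copper, and 3 and 1 in rich medium. The shares of all genes at this unadjusted level were 14.6% in the pools, 5.9% in copper and 11.9% in rich medium. Their medians in the pools were 0.12 and 0.00. Their part in the AQY2 values was not tested.

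The genes whose pattern over the 18 means was most like that of a member are given as a description, with the running median over spots subtracted. For AQY2 they were YLL053C (r = 0.93) and COX1, the mitochondrially encoded oxidase subunit (r = 0.88), and without the YPS163 means the latter fell to 0.45 over 16 means. For FPS1 they were YLR036C (0.85) and MNS1, a mannosidase gene of the endoplasmic reticulum (0.81), which also came first on centred values with 0.83. For STL1 they were YPL113C and EAF7, a subunit gene of an acetyltransferase complex (0.86 and 0.85), which ranked 499 and 399 on centred values. For GPD1 they were ATP17, an ATP synthase subunit gene (0.83), and VPS52, a gene of vesicle tethering (0.78), with 0.58 and 0.60 on centred values. For GPD2 they were BET5, another tethering gene (0.81), and RBH1 (0.72), with 0.44 and -0.15 on centred values. The 18 means share arrays and pools, so these values carry no test. Among the members themselves AQY2 and FPS1 ran opposite to each other (r = -0.63 on centred values and -0.64 with the median subtracted). FPS1 also ran opposite to GPD1 (-0.61 and -0.52) and to GPD2 (-0.52 and -0.54), and had 0.27 and 0.41 with STL1. GPD1 and GPD2 had 0.32 and 0.36 with each other. All these r span both media, so a shift between the media enters them along with differences between strains.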

How the data were processed

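The deposited values, 60 arrays of 6144 rows with 0 missing, were log2 ratios of the 2 channels: 2 to the power of the value lay within 0.00001 of a number with 3 decimals in 100% of ratios under 10. Per the labels, spots were read with GenePix 4.0 from a GenePix 4000A scan, and poor ones were marked. The dye of each channel, and any normalization, were not given in the sources used here. Array medians ran from -0.77 to 1.16, so each array was centred, and values were turned by the channel order of the labels. Of 5541 rows with 1 gene, 5536 were named through R64 and 5 kept the platform name. The 17 genes with several rows were averaged, and 603 rows without a gene were left out of tests. Precision is limited by the number of arrays.

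In limma 3.58.1 (R 4.3.3) the model had 18 group means and a channel effect for the 54 strain arrays, a mean and a channel effect for the 6 pool arrays, and both together for single strain responses over 60 arrays. The p-values were adjusted by Benjamini-Hochberg over all 5524 genes, and the threshold was 0.05. The members, lists and tests were chosen with earlier results of these data known. Named were all members, YLL053C and AQY3, up to 4 called genes per list, CUP1-1, and the 2 most alike genes per member, and, beyond that rule, the genes the text says were named after their values were seen. For spot position, a running median was taken over 15 by 15 spots in a layout of 16 blocks of 384 spots inferred from the values. Alternatives were no centring, equal spread, no channel effect, robust empirical Bayes, 1 medium alone, a replicate block, both position corrections and left-out arrays. Fits were tested on simulated data with 200 of 5524 genes changed. At a log2 change of 1 the pool test recovered 43.5% of them and the F-test in copper 4.5%. The test of S288C against the others in copper recovered 44.5%. At a change of 2 these shares were 95%, 84% and 97.5%. For the F-test in rich medium 0 genes were changed, so its recovery is not known. Tables and figures were made in Python 3.11.15 (pandas 2.3.3, NumPy 2.4.6, matplotlib 3.10.9).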

Additional observations from a re-analysis of the deposited data

How the results depend on the processing

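Over the alternatives tried, no called value of a member changed sign. In the pools 1 member was called, and 0 were without the channel effect; leaving out each pool array gave 0 to 1. In the F-test in copper 0 were called, but 1, AQY2, with the running median subtracted, and 0 in every fit with an array or replicate number left out. In the F-test in rich medium 1 was called, but 0 with arrays of equal spread (AQY2 adjusted p = 0.176) and 0 with the rich medium arrays alone (adjusted p = 0.120), and from 0 to 1 with arrays left out. Of pairs of member and strain in copper 0 passed, against 1 when arrays were centred within print blocks and 1 with the running median subtracted, both AQY2 in YPS163. In rich medium 1 pair passed, and 0 with equal spread or with the rich medium arrays alone (adjusted p = 0.0548). With arrays left out 0 to 2 passed, the second being GPD2 in M8 without M32 replicate 2 (adjusted p = 0.0441). Without replicate number 1 of every strain channel order was nearly constant and its effect was left out, and AQY2 in YPS163 had 1.70 (adjusted p = 0.866). YLL053C in YPS163 in copper missed the threshold with any 1 of the 3 replicate numbers left out (adjusted p = 0.0593, 0.106 and 0.136), and in rich medium without number 1 (0.98, adjusted p = 0.817) or 3 (adjusted p = 0.0611). The interaction called 0 members in every alternative. Replicate numbers are shared between strains, and the deviations of arrays with the same number correlated between -0.63 and 0.80, with medians from 0.15 to 0.32 by number and medium. Of 216 pairs 148 were over 0.1, not all of them, so the numbers were not taken to pair the arrays, although the medians were above 0. With the replicate block in place of the channel effect the members called were 0 in copper and 1 in rich medium, as without it, and YLL053C passed the F-test in both media (adjusted p = 0.0493 and 0.0114). Over all genes 100 passed in place of 80 in copper and 124 in place of 90 in rich medium. Over all genes the pool test called 78 genes and from 15 to 100 under the alternatives. In copper equal spread raised the calls from 80 to 240, copper arrays alone to 143, print blocks to 172 and the running median to 208, and leaving out replicate 1 or 3 lowered them to 18 and 51. In rich medium 148 passed with the running median, 152 with print blocks, 57 with equal spread, 50 with that medium alone, 60 without centring, 25 without replicate 1, 176 without YPS163 replicate 2 and 150 without M32 replicate 2. Signal over background is not among the values used here.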
